A study of Mus musculus with 6 samples.

Results

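The genes described here make the keratins and partner proteins of the hair shaft and of the inner root sheath, and their RNA was compared in the dorsal skin of wild-type (WT) and tight skin (TSK) mice. They were chosen by name: 32 gene names were listed, and 31 of them were present among the 55291 genes of the count table. Krt85 was not analysed here. Bulk RNA was sequenced from the shaved dorsal skin of 3 TSK mice and 3 WT littermates, and each library came from 1 mouse. In TSK mice part of Fbn1, which encodes fibrillin 1 of elastic microfibrils, is duplicated in the germline, and the mutation was kept by crossing to C57BL/6, the strain given for both groups. No agent was given to either group. The labels give an age of 6 to 8 weeks for all mice, and the study's methods give the upper end of that range. The labels call all 6 mice female while the methods call them male, and all 6 libraries held RNA of the Y-linked gene Ddx3y, at 56.7 to 72.7 CPM, beside 2.57 to 4.58 CPM of Xist, which is expressed from the inactive X chromosome of females.

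A hair grows from a follicle whose matrix cells divide at its base and then move upward while they differentiate in concentric layers. The inner layers become the shaft (medulla, cortex and cuticle), which is built from type I and type II hair keratins that pair with each other and are embedded in keratin-associated proteins. Around the shaft lies the inner root sheath, a stiff sleeve with its own keratins and with trichohyalin, and outside it the companion layer. These layers are made while the follicle is in its growth phase, anagen, and are largely lost when it rests, so the level of their RNA in skin is known to vary with the hair cycle.

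Library totals ranged from 17561453 to 19219814 counts. Fbn1, the mutated gene, lay between 262 and 288 CPM (counts scaled to a library total of 1000000) in WT and between 1538 and 2285 CPM in TSK, and its adjusted p with edgeR was 0.00327 (log2 fold change 2.54, SE 0.22). Krt5 and Krt14, which define basal keratinocytes, were present in every library, together between 1743 and 4142 CPM, and so were skeletal muscle genes, whose 16 listed members summed to between 148132 and 250061 CPM. The listed hair genes took a very small share of the counts: 2949, 2647 and 1362 counts in the WT libraries, numbered 1 to 3, and 2761, 2445 and 2870 counts in the TSK libraries, which is at most 0.0168% of a library. Single libraries stood apart among these low counts. WT 3 held the lowest value of 16 of the 31 genes and TSK 2 the highest of 14. In bulk skin, fewer cells of a type and less RNA per cell cannot be told apart, and the same holds for more of either.

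Every gene was tested with edgeR's quasi-likelihood test over all 19971 genes that passed a filter on low counts, with p-values adjusted by the Benjamini-Hochberg method over all of them, and a positive log2 fold change means a higher level in TSK. Of the 21 hair genes that were tested, 4 were higher in TSK at an adjusted p under 0.05 (Krt25, Krt27, Krt71 and Krt87), where 2.71% of all tested genes were. None was lower, where 0.681% of all tested genes were (3.39% in either direction). At an unadjusted p under 0.05, 11 were higher and 2 lower, against 12.1% and 7.9% of all tested genes. DESeq2 called 5 higher (5.13% of its genes) and 1 lower (1.85%), and limma-voom 3 higher (2.17% of all tested genes) and none lower (0.556%). With edgeR and libraries scaled by their totals alone, 8 were higher (8.44% of all tested genes) and 1 lower (0.466%). Past the thresholds of the study, a fold change above 2.5 with an adjusted p under 0.01, stood only Krt87 with edgeR (0.29% of all tested genes) and 5 of the genes with DESeq2 (1.71% of its genes). Both directions are counted here, and the 5 include Tchhl1, which was lower in TSK. The median log2 fold change was 1.31 over the 21 genes and -0.03 over all tested genes, but 0.46 over the 14 genes with a CPM of at least 1 in 3 libraries and -0.005 over the 8 that reached the level of the low-count filter in all 3 WT libraries.

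These counts have to be read with the filter in mind. It asks for about 0.541 CPM in 3 libraries, and 12 of the 21 genes, all 4 called ones among them, reached that level in all 3 TSK libraries but in fewer than 3 WT libraries. Such a gene was tested because it was higher in TSK. With no filter on counts, all 31 genes could be tested, and 8 were higher (2.99% of 34809 genes) and 1 lower (0.997%). Of the 8 genes that reached the filter level in all 3 WT libraries, none was called by edgeR, and their log2 fold changes ranged from -1.75 for Tchhl1 to 0.72 for Dsg4. On CPM scaled by TMM, a normalization that limits the weight of a few abundant genes, all TSK libraries lay above all WT libraries for 13 of the 31 genes (14.1% of tested genes) and below them for 1, Tchhl1 (10.6% of tested genes). The 13 include Krt33a, Krt33b and Padi1, which did not pass the filter, while both shares are of genes that did.

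**Figure D1:**
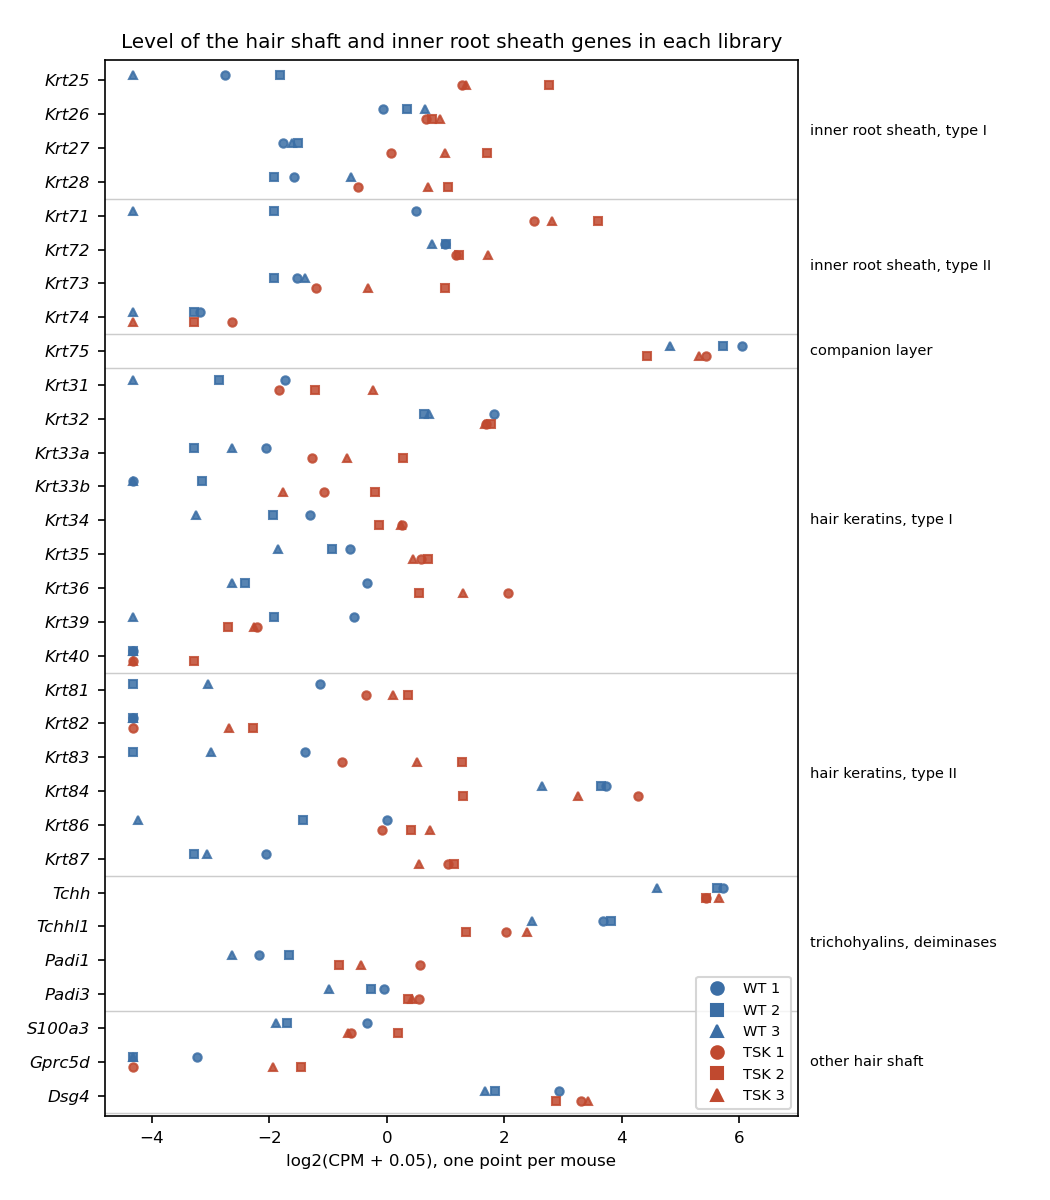
Level of each of the 31 genes in every library, as log2(CPM + 0.05) on the horizontal axis, with genes grouped by the layer they are known from. Blue points are the 3 WT mice and red points the 3 TSK mice, with 1 symbol per replicate number, which does not pair the mice. Points at the left edge are listed at or near 0. The red points of Krt25, Krt71 and Krt87 lie to the right of all blue points, those of Tchhl1 to the left, and the points of Krt26 and Krt72 lie close together.

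The inner root sheath keratins were examined first. Their 4 type I genes, Krt25 to Krt28, lie side by side on the minus strand of chromosome 11, and their 4 type II genes, Krt71 to Krt74, on the minus strand of chromosome 15 (positions are in mm10). Krt25, Krt27, Krt28 and Krt71 are known from all layers of the inner root sheath, and Krt26, Krt72 and Krt73 from its cuticle. The 3 called genes of this group are Krt25, Krt27 and Krt71. Krt26, which lies between Krt25 and Krt27, and Krt72, which Krt74 separates from Krt71, did not pass the test. The bases before the start of these 5 genes are shown because the called and the uncalled genes lie near each other in the same clusters. They are the 250 bases before each start, 5′ to 3′ on the strand of the gene, from RefSeq on build GRCm38.p6, at chr11:99322953-99323202 for Krt25, chr11:99337967-99338216 for Krt26, chr11:99351120-99351369 for Krt27, chr15:101743099-101743348 for Krt71 and chr15:101786522-101786771 for Krt72, all on the minus strand. Capitals mark each match to TATAAA, the core of the TATA box, on either strand.
Krt25: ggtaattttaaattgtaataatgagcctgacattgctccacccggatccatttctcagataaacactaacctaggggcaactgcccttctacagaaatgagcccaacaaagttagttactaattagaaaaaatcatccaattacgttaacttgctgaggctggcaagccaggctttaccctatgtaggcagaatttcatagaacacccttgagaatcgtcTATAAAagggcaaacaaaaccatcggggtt
Krt26: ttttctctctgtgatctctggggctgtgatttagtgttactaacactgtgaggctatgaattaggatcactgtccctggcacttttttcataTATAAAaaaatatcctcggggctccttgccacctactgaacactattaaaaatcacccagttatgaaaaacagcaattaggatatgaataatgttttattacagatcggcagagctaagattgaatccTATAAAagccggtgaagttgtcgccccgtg
Krt27: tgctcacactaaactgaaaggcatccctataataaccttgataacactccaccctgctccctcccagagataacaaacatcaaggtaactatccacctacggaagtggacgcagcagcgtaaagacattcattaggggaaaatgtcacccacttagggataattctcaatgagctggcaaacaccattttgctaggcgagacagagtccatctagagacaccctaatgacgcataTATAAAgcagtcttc
Krt71: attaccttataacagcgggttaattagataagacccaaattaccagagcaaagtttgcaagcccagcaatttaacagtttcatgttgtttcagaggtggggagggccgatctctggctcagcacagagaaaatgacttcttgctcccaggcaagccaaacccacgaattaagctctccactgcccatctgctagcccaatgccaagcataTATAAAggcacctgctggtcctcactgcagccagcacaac
Krt72: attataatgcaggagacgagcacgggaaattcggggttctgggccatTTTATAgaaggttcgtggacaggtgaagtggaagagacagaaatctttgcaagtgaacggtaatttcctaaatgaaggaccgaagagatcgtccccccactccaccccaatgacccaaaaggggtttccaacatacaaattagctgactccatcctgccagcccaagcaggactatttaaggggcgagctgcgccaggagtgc

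In the windows of Krt25 and Krt26 alike, TATAAA began at -30 from the RefSeq start, and Krt26 held a further match at -158. In that of Krt27 it began at -15 and in that of Krt71 at -40. In that of Krt72 the match was on the opposite strand, at -203. The RefSeq starts differ from the gene starts of the deposited table for all of these genes but Krt25. Counted from the latter, the match began at -30 in Krt25, -29 in Krt26, -29 in Krt27, -28 in Krt71 and -263 in Krt72. None of the 5 windows held CTTTGA, a core sequence bound by LEF1 and its relatives. A RefSeq window of 300 bases (250 before and 50 after the start) was matched for 23 of the 31 genes. On either strand TATAAA was in 15 of these 23 genes (65.2%), against 15.7% of 27025 genes with a window. On the strand of the gene and beginning between -40 and -20, it was in 9 of the 23 (39.1%), against 2.41% of all. CTTTGA was in 8 of the 23 (34.8%), against 18.2% of all. A match of letters is not a shown binding site.

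Krt25 (chromosome 11, 99315516 to 99322952) had estimated counts of 1.72, 4.40 and 0 in the WT libraries and of 43.0, 129 and 47.0 in the TSK libraries. Every TSK library was far above every WT library, and TSK 2 was the highest. Its level was 0.111 ± 0.118 CPM in WT and 3.86 ± 2.48 CPM in TSK (SD, n = 3), and edgeR gave an adjusted p of 0.0171 for a log2 fold change of 4.77 (SE 0.74, 95% confidence interval 3.09 to 6.46), a size that rests on few WT counts. Without WT 3 the adjusted p was 0.0695.

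Krt71 (chromosome 15, 101733949 to 101743110), one of the type II keratins that pair with these type I keratins, had counts of 23.8, 4 and 0 in WT and of 103, 232 and 132 in TSK. The groups did not overlap, but WT 1 stood well above the other two WT libraries. The level was 0.522 ± 0.728 CPM in WT and 8.23 ± 3.37 CPM in TSK, with a log2 fold change of 3.74 (SE 0.72, 2.08 to 5.39, adjusted p = 0.0320 with edgeR). DESeq2 did not call it (adjusted p = 0.0624). Neither did edgeR without WT 2 (0.0953), without WT 3 (0.0831), without TSK 2 (0.0710) or without TSK 3 (0.0616). It stayed called without TSK 1 (0.0457) and without WT 1 (0.0132), where its log2 fold change was 5.83.

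Krt27 (chromosome 11, 99345565 to 99351105) had counts of 4.29, 5.62 and 5 in WT and of 18.1, 61.7 and 36.5 in TSK. The WT libraries were close to each other and all TSK libraries lay above them. The log2 fold change was 2.58 (SE 0.51, 1.41 to 3.75, adjusted p = 0.0348 with edgeR). It was not called without WT 1 (0.0606), WT 2 (0.0834), WT 3 (0.135), TSK 2 (0.0769) or TSK 3 (0.0738), nor by limma-voom (0.0750). Part of its value is uncertain, since 11.1% of the 50-base windows of its transcripts also occur in Krt25, and 10.9% of those of Krt25 in other genes, mainly Krt27.

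Krt28 (chromosome 11, 99364872 to 99374904) had counts of 5, 4 and 11 in WT and of 12, 38.7 and 29.8 in TSK. After scaling, the groups overlapped, and the log2 fold change of 1.66 (SE 0.53) did not pass the test (edgeR adjusted p = 0.130). Krt73 (chromosome 15, 101793308 to 101802347) had counts of 5.17, 4 and 6 in WT and of 7, 37.3 and 14.1 in TSK, where TSK 2 alone was far above WT, and it did not pass the filter. Krt74, which the deposited table types as a transcribed unitary pseudogene in the mouse, had at most 2 counts in any library.

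Krt26 (chromosome 11, 99328550 to 99337967) had counts of 15.9, 23.0 and 27.6 in WT and of 28.0, 31.7 and 34.4 in TSK. The groups nearly touched on the deposited scale and overlapped after TMM scaling, with a log2 fold change of 0.15 (SE 0.31, -0.55 to 0.85, adjusted p = 0.834 with edgeR). Krt72 (chromosome 15, 101776172 to 101786461) had counts of 34, 37 and 30 in WT and of 40.3, 44.2 and 61 in TSK, and its log2 fold change of 0.19 (SE 0.25, -0.38 to 0.76) did not pass either (adjusted p = 0.730). Fold changes as large as those of Krt25, Krt27 and Krt71 lay outside the intervals of both genes. These called genes were picked for the comparison after the values had been seen. Krt25 and Krt27 reached the filter level in no WT library and Krt71 in 1, so their fold changes rest on low WT counts. A difference between these genes and Krt26 or Krt72 was not tested.

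The makeup of the group was read from sums within each library. Together, Krt26 and Krt72 gave 2.84, 3.19 and 3.17 CPM in WT and 3.76, 3.95 and 5.06 CPM in TSK. Krt25, Krt27 and Krt71 gave 1.70, 0.746 and 0.275 CPM in WT and 9.01, 22.0 and 11.4 CPM in TSK. The sum of the 3 genes was thus 0.597, 0.234 and 0.0868 of that of the pair in WT, and 2.40, 5.57 and 2.26 times it in TSK. The pair and the trio were put together after their values had been seen, so this ratio, which needs no scaling between libraries, is a description with no test. All 8 inner root sheath keratins summed to 5.18, 4.42 and 4.38 CPM in WT and to 13.9, 29.9 and 18.8 CPM in TSK.

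**Figure D2:**
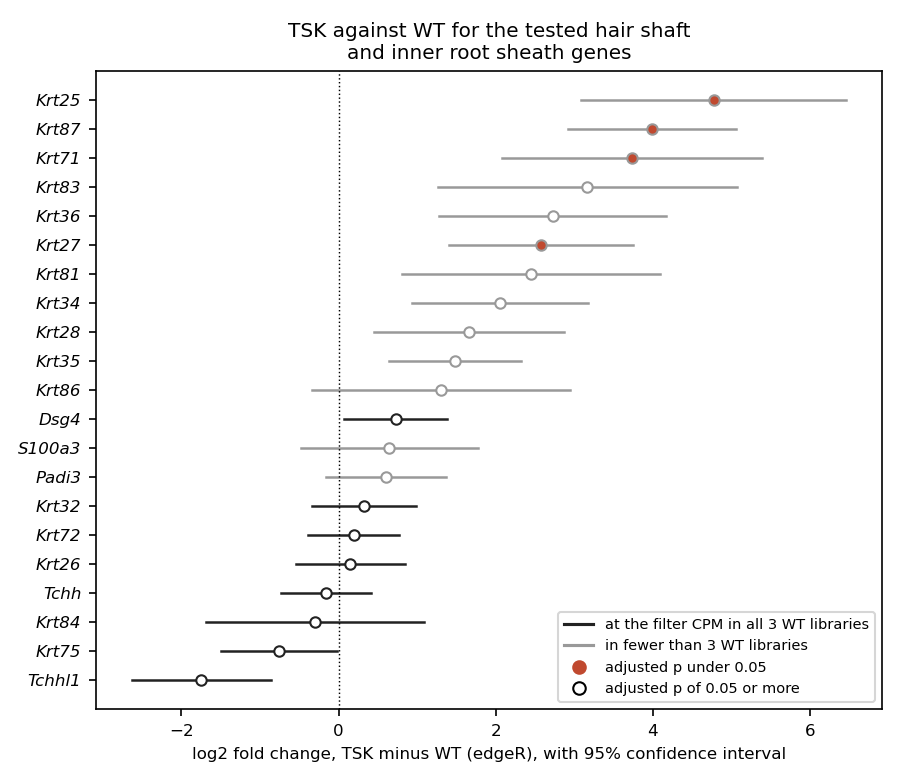
Log2 fold change, TSK minus WT, of the 21 tested genes by edgeR, on the horizontal axis, with lines for the 95% confidence interval. Filled points have an adjusted p under 0.05. Dark lines are genes at the filter level in all 3 WT libraries and grey lines genes that reached it in fewer than 3. All 4 filled points are on grey lines, from 2.58 for Krt27 to 4.77 for Krt25.

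Krt75 (chromosome 15, 101563345 to 101573905) is the keratin of the companion layer, which lies between the inner and outer root sheaths. It had counts of 1165, 989 and 516 in WT and of 783, 415 and 746 in TSK. The groups overlapped, and WT 3 was below 2 of the 3 TSK libraries. Its log2 fold change was -0.76 (SE 0.32, -1.50 to -0.02, adjusted p = 0.240 with edgeR). Per length it was the most abundant of the 31 genes, at 15.04 CPM per kb of exon in WT and 10.6 in TSK.

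Among the type I hair keratins, Krt35 is known from the early shaft (matrix and cortex), Krt31, Krt33a, Krt33b and Krt34 from the cortex and Krt32 from the cuticle. None of the 4 tested genes of this class passed the test. Krt36 (chromosome 11, 100102007 to 100105627) had counts of 13, 2.60 and 2 in WT and of 74.7, 27 and 45.5 in TSK, with no overlap. The log2 fold change was 2.73 (SE 0.63) with an edgeR adjusted p of 0.0577, and DESeq2 called it (0.00171). Krt34 had counts of 6.24, 3.98 and 1 in WT and of 20.9, 16.5 and 21.3 in TSK (log2 fold change 2.05, SE 0.49, adjusted p = 0.0627 with edgeR). Krt35 had counts of 10.4, 8.93 and 4.11 in WT and of 26.3, 30.4 and 24.7 in TSK (1.48, SE 0.37, adjusted p = 0.0673 with edgeR). For these 3 genes every TSK library was above every WT library, and edgeR's adjusted p was above 0.05. Scaled by library totals alone it was 0.0219 for Krt36, 0.0250 for Krt34 and 0.0263 for Krt35, and without WT 3 it was 0.192, 0.187 and 0.211. Krt36 was called by edgeR without WT 1 (0.0278) or without TSK 2 (0.0485), and when no other library was left out.

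Krt32 (chromosome 11, 100080848 to 100088227) had counts of 61, 28 and 29 in WT and of 58, 65 and 59 in TSK. WT 1 lay among the TSK libraries, and the log2 fold change was 0.32 (SE 0.29, adjusted p = 0.586 with edgeR). The antisense gene Gm11571 overlaps its exons. It was the type I hair keratin with the highest level per length in WT, at 1.27 CPM per kb. The other type I hair keratins did not pass the filter. Krt33a had counts of 3.34, 1 and 2 in WT and of 6.61, 22.4 and 10.9 in TSK, and Krt33b of 0, 1.17 and 0 in WT and of 7.70, 15.7 and 4.59 in TSK. Their groups did not overlap, though each rests on a handful of WT counts. Krt31 had counts of 4.42, 1.65 and 0 in WT and of 4.17, 7.23 and 14.98 in TSK, and its groups overlapped. Krt39 had counts of 11, 4 and 0 in WT and of 3, 2 and 3 in TSK, and Krt40 was at 0 in 5 of the 6 libraries. Levels of Krt31, Krt33a, Krt33b and Krt34 cannot be fully separated, because between 17.8% and 33.1% of their 50-base windows occur in another gene, mostly among themselves.

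Among the type II hair keratins, Krt87 (chromosome 15, 101431038 to 101438805) passed the test. It had counts of 3.32, 1 and 1.27 in WT and of 36.7, 41.4 and 26.6 in TSK. The groups were far apart and the TSK libraries close to each other, at 1.86 ± 0.396 CPM against 0.104 ± 0.0740 CPM in WT (SD, n = 3). The log2 fold change was 3.99 (SE 0.47, 2.92 to 5.06, adjusted p = 0.00847 with edgeR). Without WT 3 the adjusted p was 0.0561. Of its 50-base windows 36.9% occur in another gene, most often in Gm49425, a neighbour that was not tested, so part of its value is uncertain.

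Krt81, Krt83 and Krt86 are known from the cortex. Krt83 had counts of 5.81, 0 and 1.38 in WT and of 9.77, 45.7 and 26.1 in TSK, with a log2 fold change of 3.16 (SE 0.83) that edgeR did not call (adjusted p = 0.0796) and DESeq2 did (0.0112). Krt81 had counts of 7.13, 0 and 1.29 in WT and of 13.3, 23.7 and 19.4 in TSK (2.45, SE 0.72, adjusted p = 0.104 with edgeR). Both were above WT in every TSK library, with WT 1 as the nearest. Without WT 1 edgeR called both, at log2 fold changes of 4.58 for Krt81 (adjusted p = 0.0269) and 5.12 for Krt83 (0.0411). Leaving out any other library gave no call of either. Krt86 had counts of 16.8, 6 and 0.06 in WT and of 16.3, 24.7 and 30.4 in TSK, where TSK 1 overlapped WT 1 (1.31, SE 0.72, adjusted p = 0.358 with edgeR). Krt81 and Krt86 share 37.7% and 43.3% of their 50-base windows with other genes, mostly with each other, and Krt83 shares 22.1%, mostly with Krt86, so that the separate values of all 3, the DESeq2 call of Krt83 included, are uncertain.

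The remaining type II hair keratins counted here were Krt84 and Krt82, of which Krt82 is known from the hair cuticle. Krt84 (chromosome 15, 101525026 to 101532821) had counts of 233, 235 and 113 in WT and of 350, 46 and 180 in TSK. It overlapped fully between the groups, with the highest and the lowest value both in TSK, and its log2 fold change of -0.30 (SE 0.61, adjusted p = 0.834 with edgeR) turned to 0.18 without TSK 2. Krt82 was at 0 in all WT libraries and had 0, 3 and 2 counts in TSK, for which no fold is given.

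Trichohyalin, the product of Tchh, fills the cells of the inner root sheath and the medulla and is hardened by deiminases and transglutaminases, and Tchhl1 encodes a relative of the same family. The genes lie side by side on the plus strand of chromosome 3, Tchh at 93442330 to 93449078 and Tchhl1 at 93468754 to 93471981. Tchh had counts of 928, 926 and 440 in WT and of 784, 833 and 950 in TSK. The groups overlapped, with WT 3 lowest, and the log2 fold change was -0.16 (SE 0.25, adjusted p = 0.776 with edgeR), which became 0.12 when libraries were scaled by their totals alone, a scaling that moved the median of all genes from -0.03 to 0.25.

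Tchhl1 had counts of 223, 265 and 100 in WT and of 73, 48 and 98 in TSK. It was the only one of the 31 genes whose TSK libraries all lay below the WT libraries, and TSK 3 came close to WT 3 before scaling. Its level was 10.8 ± 4.62 CPM in WT and 3.90 ± 1.35 CPM in TSK. The log2 fold change was -1.75 (SE 0.39, -2.63 to -0.86). Its edgeR adjusted p of 0.05001 was just above the threshold, and DESeq2 called it (0.000328). Within a library, the counts of Tchhl1 were 0.240, 0.286 and 0.227 of those of Tchh in WT and 0.0931, 0.0576 and 0.103 in TSK, a ratio looked at after the values had been seen and not tested. No 50-base window of either gene occurs elsewhere.

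Padi1 and Padi3 encode peptidylarginine deiminases, which turn arginine into citrulline in trichohyalin and other proteins. Padi3 had counts of 16.2, 14.7 and 8.30 in WT and of 25.7, 23.8 and 24.4 in TSK. The groups did not overlap, yet the log2 fold change of 0.60 (SE 0.33) did not pass the test (edgeR adjusted p = 0.361). Padi1 had counts of 3, 5 and 2 in WT and of 26, 10 and 13 in TSK and did not pass the filter. Gm13032, on the opposite strand, overlaps its exons.

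Dsg4 encodes a desmosomal cadherin that holds shaft cells together, and had counts of 133, 66 and 57 in WT and of 178, 141 and 201 in TSK. On counts all TSK libraries were above WT, but as CPM TSK 2 (7.34) lay below WT 1 (7.57). The groups overlapped after TMM scaling as well. The log2 fold change was 0.72 (SE 0.29, adjusted p = 0.208 with edgeR). Without WT 1 it was called (0.0373). S100a3, a calcium-binding protein of the hair cuticle, had counts of 13, 4.82 and 4 in WT and of 10.96, 21 and 11 in TSK, with overlap (0.65, SE 0.49, adjusted p = 0.518 with edgeR). Gm42674 overlaps its exons on the same strand. Gprc5d, an orphan receptor of the hair cortex, had at most 6 counts in any library.

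Across the 31 genes, 4 abundant ones made up most of any total. Krt75, Tchh, Tchhl1 and Krt84 held 86.4%, 91.2% and 85.8% of the counts of the whole set in the WT libraries and 72.1%, 54.9% and 68.8% in the TSK libraries. Together they gave 145, 129 and 64.3 CPM in WT and 109, 69.8 and 105 CPM in TSK, with overlap. The other 27 genes gave 22.8, 12.3 and 10.6 CPM in WT and 42.4, 57.4 and 47.5 CPM in TSK, with none. The split was made after the values had been seen, and the 4 genes taken out are also the only tested ones with a log2 fold change below 0, so the lack of overlap in the remainder follows in part from the split and shows nothing by itself. The 9 type I hair keratins summed to 6.23, 2.73 and 2.10 CPM in WT and to 11.1, 9.74 and 9.74 CPM in TSK, with no overlap, and the 6 type II hair keratins to 15.1, 12.9 and 6.43 CPM in WT and to 23.4, 9.60 and 15.1 CPM in TSK, with overlap. Trimmed after the values had been seen, the type I hair keratins without Krt32 gave 2.76, 1.24 and 0.501 CPM in WT and 7.88, 6.36 and 6.62 CPM in TSK. The type II hair keratins without Krt84 gave 1.88, 0.373 and 0.220 CPM in WT and 4.18, 7.21 and 5.54 CPM in TSK. In each of these sums WT 1 was the highest of the WT libraries. Per kb of exon, the order in WT was led by Krt75 (15.04 CPM), Tchh (7.23), Tchhl1 (5.21) and Krt84 (4.04), and in TSK by Krt75 (10.6), Tchh (7.83), Krt84 (3.94) and Krt71 (3.76). The levels of Tchhl1 and Krt84 in WT, and of Krt84 and Krt71 in TSK, differed by less than the spread between mice.

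**Figure D3:**
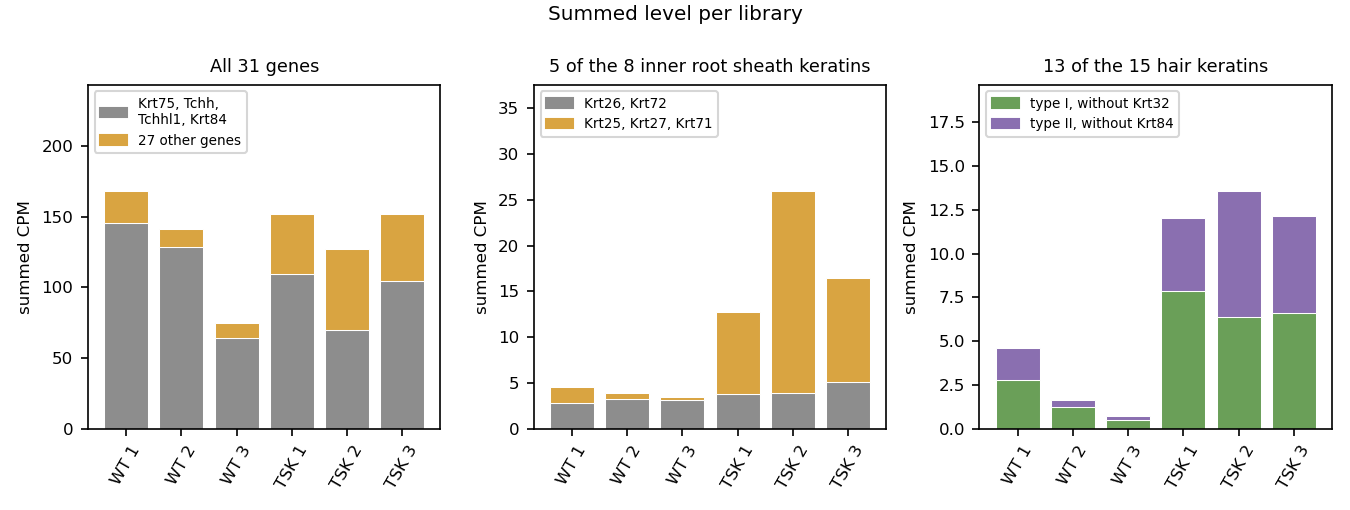
Summed CPM in each library, in 3 panels that each start at 0 on the vertical axis: all 31 genes, 5 of the inner root sheath keratins, and 13 hair keratins, with bars stacked by subset. In the left panel the 4 abundant genes make up most of every bar and the other 27 lie between 10.6 and 22.8 CPM in WT and between 42.4 and 57.4 CPM in TSK. In the middle panel Krt26 and Krt72 lie between 2.84 and 3.19 CPM in WT and between 3.76 and 5.06 CPM in TSK. Krt25, Krt27 and Krt71 reach 22.0 CPM in TSK 2.

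Both keratin clusters also hold genes that are not hair keratins. Between the first and the last of the listed genes on chromosome 11 (99315516 to 100105627) lie 45 further protein-coding genes, mostly keratin-associated proteins, and 12 of them were tested. By edgeR 1 of the 12 was higher, Krt23, with a log2 fold change of 0.99 (adjusted p = 0.0288), and none lower. DESeq2 called 1 of the 45 genes higher and 2 lower. Between those on chromosome 15 (101431038 to 101802347) lie 8 further protein-coding genes, of which 3 were tested. One was lower, Krt6b, a keratin of the outer root sheath and of wounded epidermis, with 10.8, 0.692 and 20.7 CPM in WT and 0.4501, 0.0957 and 0.198 CPM in TSK (-5.63, SE 1.14, adjusted p = 0.0366 with edgeR). Called genes thus stood beside uncalled ones in both clusters.

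**Figure D4:**
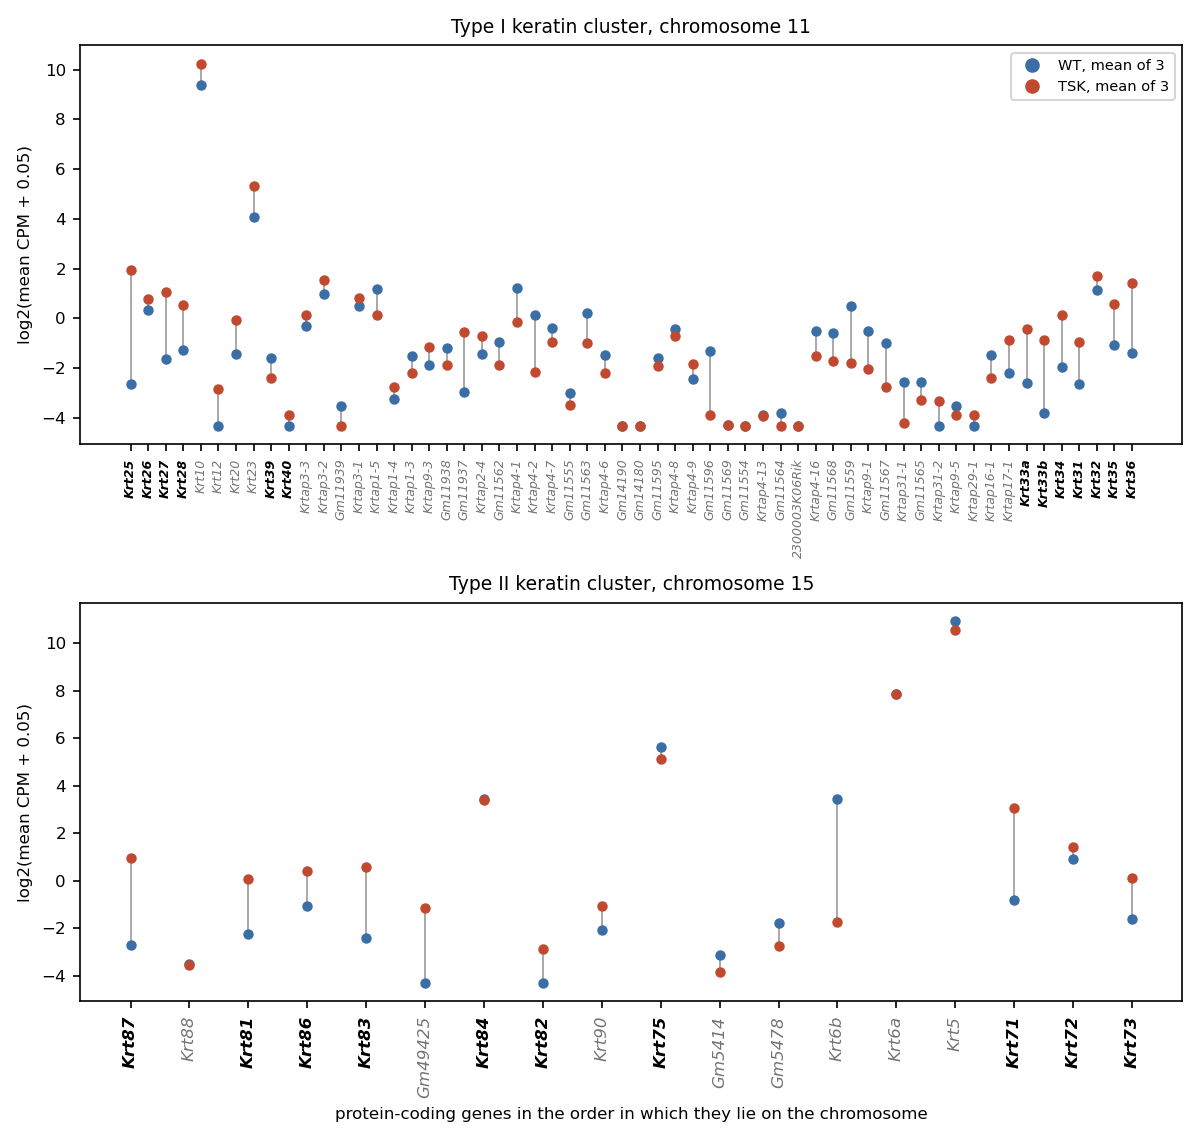
Mean level of each protein-coding gene of the type I cluster (top, 58 genes) and the type II cluster (bottom, 18 genes), as log2(mean CPM + 0.05) on the vertical axis, in their order along the chromosome. Blue points are means of the 3 WT mice and red points of the 3 TSK mice, joined by a line, and the genes described here are in bold. Krt26 stands between Krt25 and Krt27 with a far shorter line than either, and Krt6b has the longest line downward in the lower panel.

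The keratin-associated proteins, which form the matrix around the hair keratin filaments, were counted as a group. All 58 genes named Krtap summed to 57.0, 20.8 and 10.7 CPM in WT and to 27.7, 14.7 and 21.3 CPM in TSK, with full overlap. Of the 15 that were tested, edgeR called none at an adjusted p under 0.05, with 2 at an unadjusted p under 0.05, both lower in TSK. DESeq2 called 1 higher and 3 lower, and limma-voom none. Their median log2 fold change was -0.86. The most abundant were Krtap3-2 (0.34, edgeR adjusted p = 0.643) and Krtap1-5 (-1.30, 0.194).

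Regulators of hair matrix differentiation were given by a list of 16 genes, of which 15 were tested. Higher in TSK were 4 and lower none. Wnt10b, a Wnt ligand of the follicle, had 1.64 ± 0.361 CPM in WT and 14.005 ± 4.29 CPM in TSK (2.82 on the log2 scale, edgeR adjusted p = 0.00330). Prdm1 (1.52, 0.00847), Dlx3 (1.87, 0.0171) and Lef1 (1.11, 0.0299), which encode transcription factors, were the others, and the list's median was 0.25. Of 13 tested genes among other genes of hair differentiation 2 were higher by edgeR, Cdsn (1.48, adjusted p = 0.0187) and Tgm1 (1.13, 0.0299), which also act in the epidermis. DESeq2 called 2 of that list higher and 1 lower, and limma-voom 2 higher. At an unadjusted p under 0.05 with edgeR stood 6, of which 5 were higher. The list summed to 338 to 533 CPM in WT and 637 to 825 CPM in TSK. Of 12 tested genes of the dermal papilla, the signalling centre at the base of the follicle, 1 was higher, Corin, with 0.517 ± 0.218 CPM in WT and 7.04 ± 1.73 CPM in TSK (3.49, edgeR adjusted p = 0.00519). DESeq2 called 3 of these genes higher, limma-voom 1, and 4 were higher at an unadjusted p under 0.05. The summed level of this list was 23.98 to 28.0 CPM in WT and 44.9 to 58.9 CPM in TSK.

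Lists of other cell types in the skin were read beside the hair genes. Of 13 tested genes of the outer root sheath and bulge, 2 were higher (Cd34 and Tcf7l1) and 1 lower (Krt6b), and the sums overlapped, at 1577 to 2845 CPM in WT and 1904 to 2592 CPM in TSK. Of 13 genes of epidermal differentiation 3 were higher by edgeR (Lor, Krtdap and Dsc1), 6 by DESeq2, 3 by limma-voom and 7 at an unadjusted p under 0.05, with sums of 2188 to 3449 CPM in WT and 4009 to 6865 CPM in TSK. The 7 basal keratinocyte genes had sums of 3122 to 6176 CPM and 2944 to 4881 CPM, and edgeR called none of them (2 at an unadjusted p under 0.05, both lower, and none by DESeq2 or limma-voom). All 7 log2 fold changes were below 0, with a median of -0.45, and those of the most abundant were -0.60 for Krt5 (edgeR adjusted p = 0.312) and -0.40 for Col17a1 (0.428). Relative to Krt5 and Krt14 within each library, the 8 inner root sheath keratins stood at 1.25, 2.28 and 1.66 counts per 1000 counts of that pair in WT and at 4.39, 17.2 and 10.3 per 1000 in TSK, a ratio to which the level of the pair, 1937 to 4142 CPM in WT and 1743 to 3172 CPM in TSK, also contributes.

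Among 12 proliferation genes edgeR called none (2 at an unadjusted p under 0.05, both lower, and none by DESeq2 or limma-voom), and all 12 log2 fold changes were below 0, with a median of -0.38. Mki67 was at 53.2 ± 26.3 CPM in WT and 43.7 ± 5.28 CPM in TSK, and Top2a at 29.6 ± 13.01 and 28.1 ± 4.83 CPM. Of 5 tested melanocyte genes none was called (3 at an unadjusted p under 0.05, 1 by DESeq2, none by limma-voom), and the most abundant of them, Mitf, was at 21.5 ± 4.26 CPM in WT and 26.3 ± 3.14 CPM in TSK (0.02, edgeR adjusted p = 0.948). Dct was at 3.41 ± 1.06 and 8.02 ± 2.17 CPM (0.98, edgeR adjusted p = 0.0669). Of 8 sebaceous gland genes none was called (2 at an unadjusted p under 0.05, 1 by DESeq2, none by limma-voom), with sums of 184 to 481 CPM in WT and 641 to 6463 CPM in TSK. Most of these sums was Scd1, a fatty acid desaturase that adipocytes also express, at 336, 142 and 213 CPM in WT and 774, 6276 and 468 CPM in TSK, where TSK 2 alone set the upper end. Without it the other 7 genes gave 144, 42.2 and 86.3 CPM in WT and 126, 187 and 173 CPM in TSK, with overlap. Soat1 was at 34.9 ± 20.6 and 51.2 ± 8.11 CPM (0.32, edgeR adjusted p = 0.640).

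The 16 fibroblast genes summed to 7816 to 11464 CPM in WT and 23616 to 52360 CPM in TSK, with 2 called higher (Fstl1 and Dpt) by edgeR, 10 by DESeq2, 2 by limma-voom and 10 at an unadjusted p under 0.05. The upper end came from TSK 3 alone, and TSK 1 and TSK 2 were at 23616 and 23866 CPM. The 12 adipocyte genes summed to 662 to 693 CPM in WT and 1027 to 7555 CPM in TSK, with 2 called higher (Lep and Plin1) by edgeR, 5 by DESeq2, none by limma-voom and 10 at an unadjusted p under 0.05. Here too TSK 2, the library with the highest value of 14 of the 31 hair genes, stood apart, at 7555 CPM against 1320 and 1027 CPM in the other TSK libraries. The 16 skeletal muscle genes summed to 172025 to 250061 CPM in WT and 148132 to 170095 CPM in TSK, with none called by edgeR (11 at an unadjusted p under 0.05) or limma-voom and 14 by DESeq2 (1 higher and 13 lower). The most abundant were Ttn, with a log2 fold change of -0.74 (edgeR adjusted p = 0.486), and Myh4 (-1.09, 0.182). The part of any of these in the levels of the hair genes was not tested. Leaving out WT 3 thus removed all 4 calls, with log2 fold changes of 4.24 for Krt25, 2.60 for Krt27, 3.18 for Krt71 and 3.77 for Krt87, while Fbn1 had an edgeR adjusted p of 0.0390 in that fit, and leaving out any other library kept those of Krt25 and Krt87.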

How the data were processed

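Per the study's methods, ribosomal RNA was depleted, stranded libraries were read single-end, and STAR aligned the reads to mm10 with Ensembl annotation. The authors deposited estimated counts per gene from Partek Flow 11.0 (43.3% to 45.4% of non-zero values whole within 0.001, so reads were shared between genes) and CPM, counts scaled to 1000000 per library. The tests had been planned for counts, and the deposited estimated counts were rounded first.

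The main test was edgeR 4.0.16 in R 4.3.3 (glmQLFit, glmQLFTest, TMM, filterByExpr with a minimum count of 10), with DESeq2 1.42.0 and limma 3.58.1 as alternatives, checked on simulated counts. Groups came from the labels. Replicate numbers did not pair the mice (correlations 0.01, 0.17 and -0.09). P-values measure the spread between these mice. No 2 libraries of a group agreed within sampling noise (lowest chi-square per degree of freedom 8.85). The members, and the lists of other cell types, were chosen with earlier results of these data known. Named are all members, up to 4 called genes by lowest adjusted p of each other list, or else its 2 most abundant. Positions were checked against GENCODE M21, with the same start and end for 30 of 31 genes. RefSeq windows on the minus strand were moved by 1 base, where transcripts begin at base 251. Alternatives covered scaling, tool, pseudocount, filter, replicate block and leaving out each library.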

Additional observations from a re-analysis of the deposited data

How the results depend on the processing

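Counts of a few reads limit these results: most of the genes had fewer than 50 counts in every library, and 10 of 31 could not be tested after the filter. Of 371 values of single genes under the alternatives, 320 kept their direction and their side of the threshold, 32 gained a call, 13 lost one and 6 turned. The 4 genes higher in TSK became 8 with library size only, 8 with no filter and 9 with limma-trend on log2(CPM + 1) or log2(CPM + 0.1), and 0 to 7 when 1 library was left out (0 without WT 3, 7 without WT 1, 2 without WT 2 or TSK 3). Shares of all genes called stand above for the main fit, DESeq2, limma-voom, library size only and no filter. They were not taken for the other fits. Counts under limma-trend, with a replicate block or without 1 library thus cannot be weighed against such a share. The limma-trend fits used CPM scaled by library totals, without TMM. The 0 lower genes became 1, Tchhl1 in each case, with library size only, DESeq2 size factors in edgeR, scaling without muscle and structural RNA, DESeq2, both limma-trend fits and no filter, and stayed at 0 when 1 library was left out. The 1 gene past the study's thresholds became 2 with library size only, 5 with DESeq2, 0 with limma-voom, 3 and 4 with limma-trend (pseudocounts 1 and 0.1), 6 with no filter, and 0 without any 1 library. The 5 with DESeq2 and the 6 with no filter include Tchhl1, which was lower in TSK. The median log2 fold change of 1.31 became 1.55 with library size only, 1.61 with DESeq2, 1.51 with limma-voom, 0.76 and 1.60 with limma-trend, 1.66 with no filter, 0.46 with a CPM of at least 1 in 3 libraries, and 1.12 to 1.61 when 1 library was left out. The filters and fits left out change which genes or libraries enter, and the cause of the other shifts was not tested. Turned values, none past the threshold, were those of Tchh (0.12 with library size only, 0.19 with both limma-trend fits, -0.42 without WT 3 to 0.071 without WT 2), Krt26 (-0.067 without WT 1 to 0.37 without WT 3) and Krt84 (-1.14 without TSK 1 to 0.18 without TSK 2). With a replicate block, a fit for mice that share a number, 5 genes were higher (Krt36 in addition), 0 lower, 1 past the study's thresholds, which was Krt25 (adjusted p = 0.00634) in place of Krt87 (0.0105), and the median was 1.46, while the numbers did not pair the mice.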
